A study of Mus musculus with 4 samples.

Results

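The Hedgehog pathway was examined through 9 genes, Shh, Ihh, Ptch1, Smo, Gli1, Gli2, Gli3, Hhip and Sufu, taken by gene symbol from a table of 45706 mouse genes and all present in it. The samples were left lung lobes of untreated C57BL/6 embryos at E17, from 2 Myh10+/+ (wild-type) mice and 2 Myh10-/- mice, the latter labelled Myh10L458R/L458R, that is, homozygous for a Leu-to-Arg change in the motor domain of nonmuscle myosin heavy chain II-B, and numbered 1 and 2 within each genotype. The mutation came from an ENU (a chemical mutagen) screen and is carried by every cell of the embryo. Whole lobes were sequenced, so the counts do not separate a response of one cell type from that of another. Nothing in the labels ties lungs of the same number to a litter.

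Hedgehog ligands are secreted proteins that bind the receptor Patched and thereby release Smoothened from its block, after which Gli transcription factors switch on target genes. Much of this takes place at the primary cilium, a single non-motile cilium. In the fetal lung Shh is made by the epithelium and is received by the surrounding mesenchyme, where Ptch1, Hhip and Gli1 are classical targets as well as parts of the pathway.

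Counts summed over genes were 23156026 and 19116971 for Myh10+/+ and 27573824 and 32055306 for Myh10-/- lungs. Levels are given as CPM, the share of a library's counts on a gene scaled to a fixed library size, with the totals adjusted by TMM. A mean of 5 counts was reached by 18763 genes, all 9 members among them, and these were tested for a difference between genotypes with edgeR's quasi-likelihood test and a Benjamini-Hochberg adjusted p below 0.05. Of the lung markers, Nkx2-1 (epithelium) had between 434 and 455 CPM and Tbx4 (lung mesenchyme) between 213 and 225 CPM in the 4 lungs. The Myh10 level itself was 505 and 504 CPM in Myh10+/+ and 539 and 513 CPM in Myh10-/- lungs, and since the mutation is a single base change, this level does not check the genotype. By Xist and Ddx3y, Myh10+/+ lung 1 and Myh10-/- lung 2 were female and the other pair male, so each genotype held 1 lung of each sex.

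None of the 9 genes passed the test, and the differences were small and mostly in one direction. Ptch1, Smo, Ihh and all 3 Gli genes had higher levels in both Myh10-/- lungs than in either Myh10+/+ lung, with fitted folds of 1.07 (Smo) to 1.19 (Gli2) for the 5 well-counted ones. Shh, Hhip and Sufu overlapped between genotypes, with fitted folds of 1.02, 0.984 and 0.967. Among all tested genes, 308 (1.64%) passed, of which 56 (0.298% of those tested) were higher and 252 (1.34%) lower in Myh10-/- lungs. The median log2 fold change was 0.135 over the 9 genes and 0.002 over all tested genes. The 4 genes with an unadjusted p below 0.05 (Gli1, Gli2, Gli3 and Ptch1) were all on the higher side. Of all tested genes 16.5% had such a p, 7.52% on the higher and 9.02% on the lower side. DESeq2's Wald test passed none of the 9 either, though it gave Ihh no adjusted p. Gli1 passed in 6 of 13 ways of fitting the 4 lungs. With a block that joined lungs of the same sex Gli1 did not pass (edgeR's adjusted p = 0.097). Genotypes without overlap, as in 6 of the 9 genes (all higher in Myh10-/- lungs), were found in 48.3% of all tested genes, with Myh10-/- higher in 23.9% and lower in 24.3%.

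**Figure D1:**
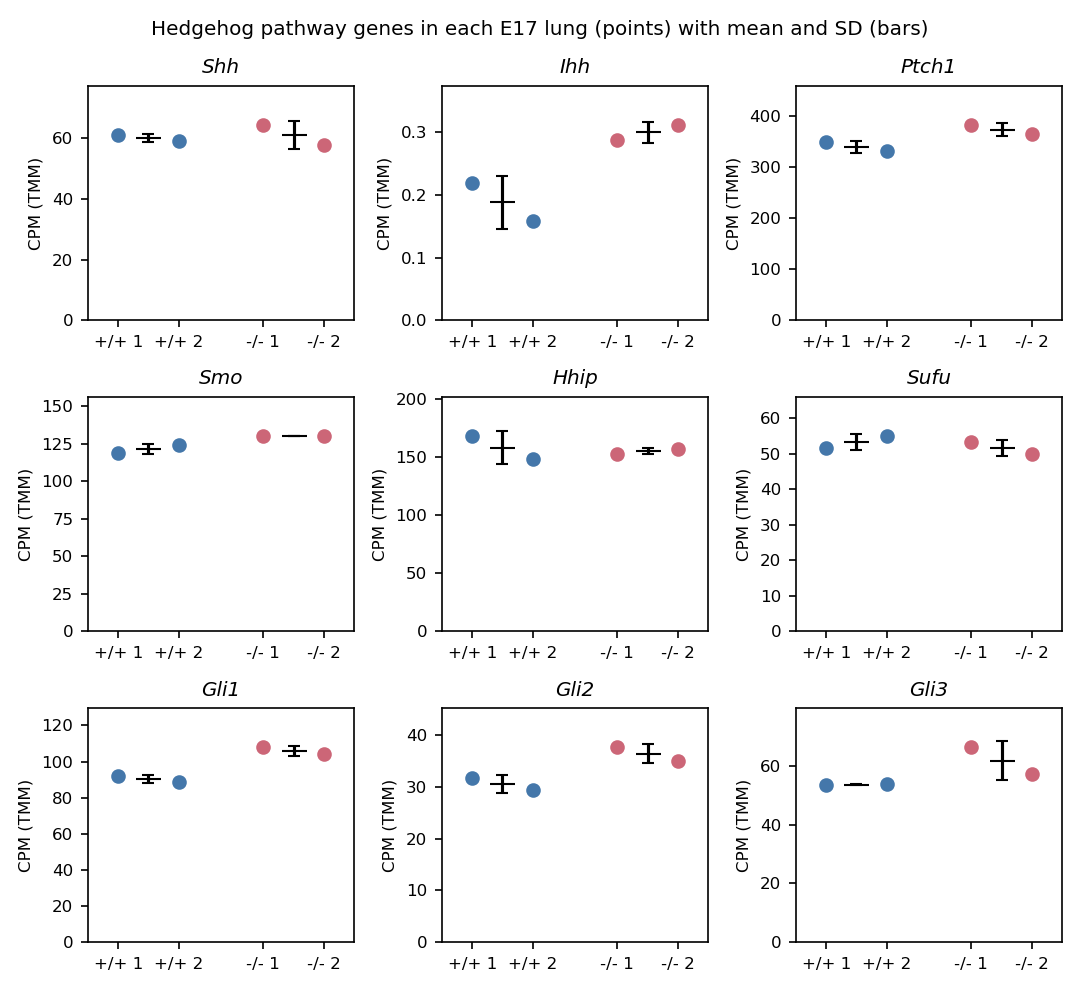
Level of each of the 9 genes in every lung, in CPM after TMM scaling on a vertical axis that starts at 0, with lungs on the horizontal axis (Myh10+/+ in blue, Myh10-/- in red, points) and the mean and SD of each genotype (black bars, n = 2). Both red points lie above both blue points for Ihh, Ptch1, Smo, Gli1, Gli2 and Gli3, and the colours overlap in height for Shh, Hhip and Sufu.

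Levels were compared between genes per length. Mean RPKM over the 4 lungs (CPM per kilobase of all annotated exons merged) was 25.1 for Ptch1, 22.4 for Smo, 21.3 for Shh, 19.6 for Gli1 and 17.3 for Hhip, then 6.81 for Sufu, 6.01 for Gli3, 4.86 for Gli2 and 0.0799 for Ihh. The ranges over lungs of Smo and Shh, of Shh and Gli1, of Gli1 and Hhip and of Sufu and Gli3 overlapped, so these neighbours could not be ordered. Antisense genes overlap 28.35% of the exon length of Shh, and reads on several genes were left out of the counts. If counting ignored strand, the Shh value is too low, so its place in this order is uncertain. When the length of the longest protein-coding transcript was used instead, Ptch1 (46.1) and Smo (33.3) still led, Gli1 (24.1) came before Shh (21.3), Sufu stood at 11.6, between Hhip (17.3) and Gli3 (7.05), and Ihh remained last at 0.0987.

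Shh (ENSMUSG00000002633) spans chr5:28456815-28467256 (minus strand, GRCm38), and Ihh (ENSMUSG00000006538) spans chr1:74945315-74951672 (minus strand). Their coding sequences are related, and a stretch of exon 2 is shown here in both because it is the kind of place where a read could be given to the wrong ligand. Both stretches are 75 bases long, the read length, written 5′ to 3′ on the gene's strand from GENCODE M21 transcripts, Shh at chr5:28461484-28461558 and Ihh at chr1:74948466-74948540, with bases identical in both in capitals.
Shh: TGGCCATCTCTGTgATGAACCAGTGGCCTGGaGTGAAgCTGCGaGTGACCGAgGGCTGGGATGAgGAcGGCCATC
Ihh: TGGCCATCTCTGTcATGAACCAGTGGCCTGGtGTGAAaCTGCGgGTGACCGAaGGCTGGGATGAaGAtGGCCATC
The stretches share 68 of 75 bases, and the longest run of identical bases between the coding sequences is 17. No window of 75 bases was shared between Shh and Ihh, or between any pair of the 9 genes.

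Shh, the main Hedgehog ligand of the lung epithelium, had 60.9 and 59.2 CPM in Myh10+/+ lungs and 64.3 and 57.7 CPM in Myh10-/- lungs. The Myh10-/- lungs held both the highest and the lowest value, so the genotypes overlapped. Means were 60.0 ± 1.14 and 61.0 ± 4.69 (SD, n = 2 each), and the log2 fold change, Myh10-/- over Myh10+/+, was 0.02 with an SE of 0.08 and a 95% interval from −0.14 to 0.19 (edgeR's quasi-likelihood test, adjusted p = 0.923). The interval in folds, 0.905 to 1.14, bounds the difference that these lungs allow, and with an offset for GC content and exon length the log2 fold change was 0.09. Of the exon length of Shh, 28.35% (807 bp) is overlapped by the antisense genes 9530036O11Rik and Gm26894, which had 1.22 to 1.80 CPM and 4.41 to 5.72 CPM, and since the sources do not say whether counting used strand, the Shh level is uncertain to that extent.

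Shh is epithelial, and the epithelial markers did not all keep their level. The sum of 12 epithelial markers was 1810 and 1820 CPM in Myh10+/+ and 1630 and 1640 CPM in Myh10-/- lungs, and 4 of the 12 (Cdh1, Elf3, Krt8 and Krt19) passed the test as lower. Nkx2-1 and Epcam did not, with log2 fold changes of 0.02 and −0.04. None of the 12 was at 0 in all lungs. In whole lobes, fewer cells of a type and less RNA per cell cannot be told apart. The part of epithelial content in the Shh values was not tested.

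Ihh, the Indian hedgehog ligand best known from cartilage, had 5 and 3 counts in Myh10+/+ lungs and 8 and 10 counts in Myh10-/- lungs. In CPM these were 0.218 and 0.158 against 0.288 and 0.311, with both Myh10-/- lungs above. The log2 fold change was 0.64 with an SE of 0.56 and a 95% interval from −0.59 to 1.87 (adjusted p = 0.614, edgeR's quasi-likelihood test), so that at this depth a difference was not detectable. The summed level of 7 cartilage markers, 11.8 and 11.7 CPM against 12.7 and 11.4 CPM, overlapped, but more than any other gene it reflects Col9a1. Col2a1 (0.873 and 0.84 against 1.55 and 1.24 CPM) and Cnmd (0.568 and 0.998 against 1.08 and 1.24 CPM) were higher in both Myh10-/- lungs, as Ihh was, and Acan (0.568 and 0.525 against 0.324 and 0.249 CPM) was lower in both, and none passed the test. The part of cartilage in the Ihh values was not tested.

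Ptch1 (ENSMUSG00000021466, chr13:63508328-63573598, minus strand), the receptor that holds Smoothened in check and is itself switched on by Gli proteins, had 348 and 331 CPM in Myh10+/+ lungs and 382 and 364 CPM in Myh10-/- lungs. Both Myh10-/- lungs were above both Myh10+/+ lungs, and the nearest lungs of the genotypes, Myh10+/+ lung 1 and Myh10-/- lung 2, differed by 0.06 on the log2 scale. Means were 340 ± 11.9 and 373 ± 13.0 (SD, n = 2 each), with a log2 fold change of 0.13, an SE of 0.05, a 95% interval from 0.02 to 0.25 and an unadjusted p of 0.0241 (edgeR's quasi-likelihood test, adjusted p = 0.22). In folds the interval ran from 1.01 to 1.19.

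Smo (ENSMUSG00000001761, chr6:29735503-29761365, plus strand), the seven-pass membrane protein that carries the signal into the cell, had 119 and 124 CPM in Myh10+/+ lungs. Both Myh10-/- lungs had 130 CPM, above either Myh10+/+ lung. Its log2 fold change was 0.10 (SE 0.05, 95% interval −0.02 to 0.21, edgeR's adjusted p = 0.375). The ratio of Ptch1 to Smo counts within a lung, 2.93 and 2.67 against 2.94 and 2.80, overlapped between genotypes.

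The 3 Gli factors are relatives with a shared zinc finger domain, Gli1 acting as an activator whose own transcription reports pathway activity, Gli2 mainly as an activator and Gli3 mainly as a repressor after processing. Gli1 (ENSMUSG00000025407) spans chr10:127329882-127341974 (minus strand), Gli2 (ENSMUSG00000048402) chr1:118834132-119053619 (minus strand) and Gli3 (ENSMUSG00000021318) chr13:15463235-15730026 (plus strand). A coding stretch of the read length is shown for the 3 genes, since reads must tell these relatives apart. It was chosen as the most alike between Gli2 and Gli3, with the Gli1 stretch that best matches that pair. Pairs with Gli1 may therefore be more alike elsewhere. It lies at coding bases 748 to 822 of Gli1 (exons 8 and 9, chr10:127336062-127336435), 1285 to 1359 of Gli2 (exons 9 and 10, chr1:118846016-118848406) and 1474 to 1548 of Gli3 (exons 10 and 11, chr13:15662507-15713549), the spans including the intron, and capitals mark bases identical in all 3.
Gli1: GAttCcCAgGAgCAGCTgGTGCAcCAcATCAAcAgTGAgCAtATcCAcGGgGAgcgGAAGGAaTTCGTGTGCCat
Gli2: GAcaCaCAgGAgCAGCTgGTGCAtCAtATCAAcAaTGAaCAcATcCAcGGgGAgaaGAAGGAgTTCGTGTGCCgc
Gli3: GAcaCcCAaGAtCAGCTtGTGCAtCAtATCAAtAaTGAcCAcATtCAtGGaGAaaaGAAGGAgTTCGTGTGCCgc
Of the 75 bases, 54 were identical in all 3 genes, 62 between Gli1 and Gli2, 55 between Gli1 and Gli3 and 65 between Gli2 and Gli3. The longest identical runs between coding sequences were 23, 14 and 25 bases in the same order, each shorter than a full-length read.

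Gli1 had 91.9 and 88.7 CPM in Myh10+/+ lungs and 108 and 104 CPM in Myh10-/- lungs, from 1688 to 3336 counts. Both Myh10-/- lungs were above both Myh10+/+ lungs, and each of the 4 differences between a Myh10-/- and a Myh10+/+ lung was between 0.17 and 0.28 on the log2 scale. Means were 90.3 ± 2.29 and 106 ± 2.75 (SD, n = 2 each), and the log2 fold change was 0.23 with an SE of 0.06 and a 95% interval from 0.10 to 0.35 (edgeR's quasi-likelihood test, unadjusted p = 0.00182, adjusted p = 0.073). In folds this is 1.17, from 1.07 to 1.27. Gli1 ranked 466 of all tested genes by p and was the member nearest to the threshold, on the far side of it. Over the 13 ways of fitting the 4 lungs it had an adjusted p between 0.0186 and 0.097 and a log2 fold change of 0.23 to 0.26. DESeq2's Wald test gave an adjusted p of 0.0675. Of its exon length, 6.55% is overlapped by Arhgap9 and Gm47200 on the other strand, and Arhgap9 had 4.93 and 4.52 CPM in Myh10+/+ against 2.84 and 3.60 CPM in Myh10-/- lungs.

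Gli2 had 31.7 and 29.3 CPM in Myh10+/+ lungs and 37.6 and 35 CPM in Myh10-/- lungs. The genotypes did not overlap, and Myh10-/- lung 1 was the highest, as it was for Gli1, Gli3 and Ptch1. Means were 30.5 ± 1.76 and 36.3 ± 1.87 (SD, n = 2 each), with a log2 fold change of 0.25, an SE of 0.08 and a 95% interval from 0.08 to 0.42 (edgeR's quasi-likelihood test, unadjusted p = 0.00837, adjusted p = 0.142). No gene overlaps its exons.

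Gli3 had 53.5 and 53.6 CPM in Myh10+/+ lungs and 66.3 and 57.1 CPM in Myh10-/- lungs. The Myh10+/+ lungs lay close together, and the Myh10-/- lungs were further apart from each other than lung 2 was from the Myh10+/+ pair. Means were 53.5 ± 0.0347 and 61.7 ± 6.51 (SD, n = 2 each), and the log2 fold change was 0.20 (SE 0.08, 95% interval 0.03 to 0.38, edgeR's unadjusted p = 0.0287, adjusted p = 0.237). The ratio of Gli2 to Gli3 counts, 0.593 and 0.546 against 0.567 and 0.613, overlapped between genotypes. The antisense gene Gm6556 covers 188 bp of the exons of Gli3.

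The distance of the Gli genes from the threshold moved with the lungs included. Without Myh10-/- lung 2, Gli1, Gli2 and Gli3 passed with edgeR's adjusted p of 0.0224, 0.0135 and 0.0155, in a fit that passed 1826 genes and assumes that the lone Myh10-/- lung varies as the Myh10+/+ pair does. Leaving out any other lung, none of the 9 passed. Without Myh10+/+ lung 2, edgeR's adjusted p was 0.35 for Gli1, 0.653 for Gli2 and 0.515 for Gli3, and without Myh10-/- lung 1 it was 0.0841, 0.474 and 0.706. Over the 4 fits with one lung left out, the log2 fold change stayed above 0 for Gli1 (0.20 to 0.25), Gli2 (0.19 to 0.31), Gli3 (0.10 to 0.31), Ptch1 (0.10 to 0.17), Smo (0.07 to 0.13) and Ihh (0.45 to 0.91), and took either sign for Shh (−0.06 to 0.10) and Hhip (−0.11 to 0.07).

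**Figure D2:**
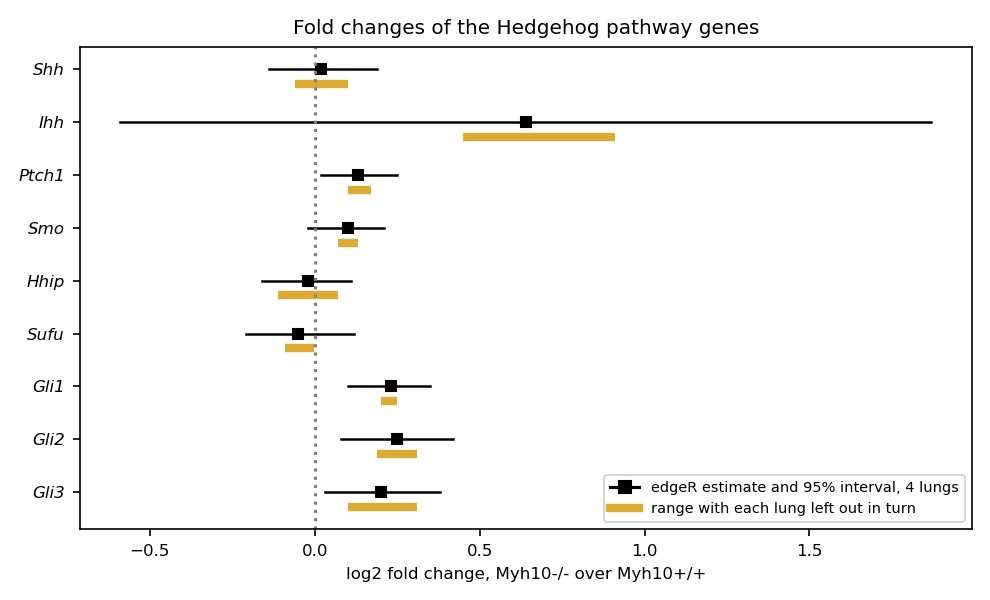
Log2 fold change, Myh10-/- over Myh10+/+, of the 9 genes, with squares for edgeR's estimate from 4 lungs, black lines for its 95% interval and yellow bars for the range over the 4 fits that leave out one lung each. The intervals of Gli1, Gli2, Gli3 and Ptch1 lie above 0, those of the other 5 genes cross it, and only Shh and Hhip have yellow bars on both sides of 0.

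Both inhibitors overlapped between the genotypes. Hhip (ENSMUSG00000064325, chr8:79965851-80058006, minus strand), a membrane decoy that binds Hedgehog ligands and is a target of the pathway, had 168 and 148 CPM in Myh10+/+ and 153 and 157 CPM in Myh10-/- lungs. Both Myh10-/- lungs lay between the Myh10+/+ lungs. The log2 fold change was −0.02 (SE 0.06, 95% interval −0.16 to 0.11, edgeR's adjusted p = 0.892), and −0.10 with an offset for GC content and exon length (adjusted p = 0.401). In folds, the interval ran from 0.897 to 1.08. The antisense gene Gm27820 covers 175 bp of the exons of Hhip.

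Sufu (ENSMUSG00000025231, chr19:46396896-46488804, plus strand), the cytoplasmic protein that binds and restrains Gli factors, had 51.6 and 54.9 CPM in Myh10+/+ and 53.1 and 49.9 CPM in Myh10-/- lungs. The genotypes overlapped, with a Myh10-/- lung lowest and a Myh10+/+ lung highest. The log2 fold change was −0.05 (SE 0.08, 95% interval −0.21 to 0.12, edgeR's adjusted p = 0.80).

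Ratios of 2 genes' counts within a lung do not depend on how libraries are scaled. The count of Gli1 per count of Shh was 1.51 and 1.5 in Myh10+/+ lungs and 1.67 and 1.80 in Myh10-/- lungs. For Gli2 per Shh the values were 0.522 and 0.494 against 0.585 and 0.607, for Gli3 per Shh 0.879 and 0.904 against 1.03 and 0.99, and for Ptch1 per Shh 5.72 and 5.59 against 5.94 and 6.31. Each of these 4 ratios was higher in both Myh10-/- lungs, whereas Hhip per Shh (2.76 and 2.49 against 2.38 and 2.73) overlapped. With Sufu, the pathway's own restraint, as the denominator, Gli1 gave 1.78 and 1.61 against 2.03 and 2.08, and among the targets Gli1 per Hhip gave 0.546 and 0.60 against 0.701 and 0.658. With 2 lungs per genotype an exact two-sided permutation test cannot give a p below 0.333, so these ratios were not tested, and as they share genes they are not separate observations.

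**Figure D3:**
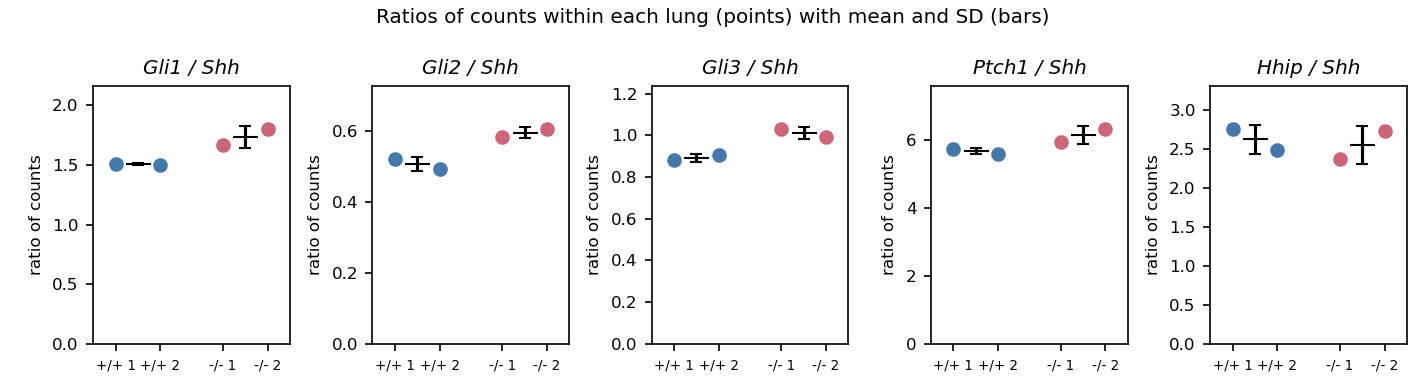
Ratio of the raw count of Gli1, Gli2, Gli3, Ptch1 or Hhip to that of Shh in each lung (points, Myh10+/+ in blue and Myh10-/- in red, vertical axes from 0), with the mean and SD of each genotype (black bars, n = 2). Both red points are above both blue points in every panel but that of Hhip, where they overlap.

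Markers of mesenchyme were looked at, since most of the 9 genes are mesenchymal in the lung, and so were those of other cell types. The sum of 12 mesenchymal markers was 5750 and 5880 CPM in Myh10+/+ and 5730 and 5590 CPM in Myh10-/- lungs, and none of the 12 passed the test. Most of that sum is Col1a1, Col1a2, Col3a1 and Vim. Of the 12 markers, Tbx5 (134 and 123 against 149 and 142 CPM, log2 fold change 0.17), Meox2 (0.11), Pdgfra (0.08) and Lum (0.26) were higher in both Myh10-/- lungs, as Ptch1, Smo and the Gli genes were. Tcf21 (−0.14), Pdgfrb (−0.10) and Vim (−0.16) were lower in both. Tbx5 and Lum on the higher side and Tcf21 on the lower side had an unadjusted p below 0.05. Smooth muscle markers summed to 684 and 739 against 666 and 664 CPM, and endothelial markers to 1690 and 1650 against 1550 and 1500 CPM. No smooth muscle marker passed, and 1 of the 8 endothelial markers, Cldn5, passed as lower (log2 fold change −0.34). The 4 markers of heart muscle summed to 119 and 155 against 90 and 83.4 CPM, and all 3 that could be tested (Myh6, Myl7 and Tnnt2) passed as lower. Glial markers summed to 12.6 and 12.8 against 12.9 and 13.1 CPM, higher in both Myh10-/- lungs but not passing for any of the 4. Leukocyte markers summed to 107 and 104 against 88.8 and 95.3 CPM and mesothelial markers to 315 and 343 against 231 and 281 CPM. No leukocyte marker passed, and 1 of the 4 mesothelial markers, Msln, passed as lower (−0.53). The sum of the red cell markers, 4270 and 5370 against 3770 and 4290 CPM, overlapped. All 7 red cell markers had log2 fold changes below 0, and 2 of them, Alas2 (−0.53) and Hba-a2 (−0.41), passed as lower. No marker of any list was at 0 in all lungs. The part of cell makeup in the values of the 9 genes was not tested.

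Beyond the 9 genes, 104 further genes of the pathway in 5 lists were read from the same fit. None passed edgeR's quasi-likelihood test at an adjusted p below 0.05, and 5 had an unadjusted p below 0.05 on the higher side and 8 on the lower side, beside 7.52% and 9.02% of all tested genes. Their median log2 fold change was 0.026, with 67 above 0 and 37 below. Over all tested genes the median was 0.002, with 9482 above 0 and 9281 below. The genotypes did not overlap in 52 of the 104, of which 32 were higher in Myh10-/- lungs and 20 lower, beside 48.3%, 23.9% and 24.3% of all tested genes.

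Genes that make or release the ligand had a median log2 fold change of −0.01 over 8 genes. Dhh, the third Hedgehog ligand, had 2.18 and 1.68 CPM in Myh10+/+ and 1.33 and 1.37 CPM in Myh10-/- lungs (log2 fold change −0.53, SE 0.26, edgeR's adjusted p = 0.34). Of its exons, 1107 bp overlap a gene on the opposite strand and 546 bp a gene on its own strand. Hhat, which attaches palmitate to the ligands, had a log2 fold change of −0.29 (SE 0.14, edgeR's adjusted p = 0.30). Disp1, which exports them, had 0.07, and Scube2, which carries them outside the cell, had −0.14.

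In the co-receptor list of 8 genes the median log2 fold change was 0.052, with values of 0.02 for Boc, 0.00 for Cdon and 0.12 for Gas1, the 3 co-receptors that present Shh to Ptch1. Mgrn1, a ubiquitin ligase that lowers Smoothened at the surface, was the only one of the 8 with an unadjusted p below 0.05, at −0.13 (edgeR's adjusted p = 0.256). Of 26 regulators of Smoothened and the Gli proteins, 11 were above 0 and 15 below, with a median of −0.008. Gpr161, a ciliary receptor that keeps the pathway off through protein kinase A, had 22.5 and 21.7 CPM in Myh10+/+ and 25.6 and 25.5 CPM in Myh10-/- lungs (log2 fold change 0.21, SE 0.07, edgeR's adjusted p = 0.171). Kif7, the kinesin of the ciliary tip that organises Gli proteins, had a log2 fold change of 0.00 (SE 0.10). Named after their values were seen, Evc (a ciliary partner of Smoothened, 0.20), Arrb1 (a beta-arrestin, −0.11), Prkaca (a catalytic subunit of protein kinase A, −0.13) and Spop (a ubiquitin ligase adaptor for Gli2 and Gli3, −0.15) were the other regulators with an unadjusted p below 0.05.

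The 18 target genes lay on both sides of 0. Their median log2 fold change was 0.028, 13 were above 0 and 5 below, and the one nearest to the threshold was lower. This was Foxf1, a mesenchymal transcription factor that answers to Shh in the developing lung, with 154 and 153 CPM in Myh10+/+ and 132 and 140 CPM in Myh10-/- lungs. The genotypes did not overlap, and the log2 fold change was −0.18 (SE 0.05, 95% interval −0.29 to −0.07, edgeR's unadjusted p = 0.00425, adjusted p = 0.107). An offset for GC content and exon length took it to −0.10 (edgeR's adjusted p = 0.243). Foxf1 passed edgeR's test with the replicate number as a block (adjusted p = 0.0486). It did not pass with the block that joined lungs of the same sex (edgeR's adjusted p = 0.183). Without Myh10-/- lung 2 its log2 fold change was −0.22. Its relatives Foxf2 and Foxl1 had log2 fold changes of 0.11 (SE 0.08) and 0.03 (SE 0.14). Bmp4, Ccnd1, Mycn and Fgf10, the last a gene that Shh is known to hold down, had log2 fold changes of 0.03, 0.02, 0.03 and 0.04. Chosen after their values were seen, Ccnd2 (0.14) and Snai1 (0.20) on the higher side and Jag2 (−0.18) on the lower side were the others with an unadjusted p below 0.05.

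Of 44 genes of the primary cilium, 33 had a log2 fold change above 0 and 11 below, with a median of 0.041 and none passing. The genotypes did not overlap in 21 of the 44. Of these, 18 were higher in Myh10-/- lungs and 3 lower, beside 23.9% and 24.3% of all tested genes. Ift88, a transport protein needed to build cilia, had 45.1 and 43.4 CPM in Myh10+/+ and 47.0 and 43.4 CPM in Myh10-/- lungs, and Kif3a, a subunit of the motor that carries cargo along the cilium, had 64.3 and 64.4 against 69.0 and 67.4 CPM. Their log2 fold changes were 0.03 (SE 0.08) and 0.08 (SE 0.07). Cep290, a protein of the ciliary transition zone, at 0.24 (edgeR's adjusted p = 0.161), and Wdpcp, a planar polarity effector needed for cilia, at −0.24 (adjusted p = 0.171), were the pair with an unadjusted p below 0.05, also chosen after their values were seen. Of the further genes named here, exons of Dhh, Gas1, Mgrn1, Kif7, Foxf1, Foxf2, Bmp4, Ccnd1, Ccnd2, Fgf10, Ift88, Cep290 and Wdpcp overlap a gene on the opposite strand. Their counts carry an uncertainty of the same kind as that of Shh, to the extent of the overlap. This ran from 41 bp (Mgrn1) to 1107 bp (Dhh).

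**Figure D4:**
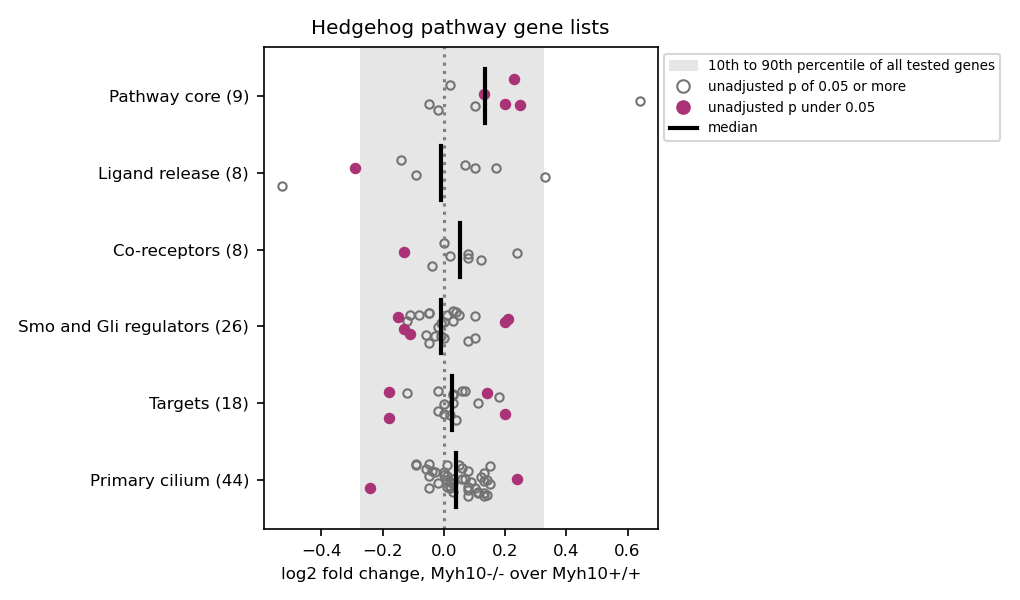
Log2 fold change, Myh10-/- over Myh10+/+, of the 9 genes (top row) and of the genes in the 5 further lists, one point a gene, filled where edgeR's unadjusted p is under 0.05, with a black line at each list's median and a grey band from the 10th to the 90th percentile of all tested genes (−0.272 to 0.324). The median of the top row is 0.135, those of the lists lie between −0.01 and 0.052, and the points outside the band are Ihh in the top row and 3 ligand release genes.

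The genes whose levels followed a member most closely over the 4 lungs were picked by Pearson's r of log2 CPM among the 12743 genes that averaged 100 counts or more. For Gli1 they were Rai1, Srgap3 and Topbp1. Topbp1 had 174, 169, 199 and 193 CPM in Myh10+/+ lungs 1 and 2 and Myh10-/- lungs 1 and 2, the same order of lungs as Gli1. For Ptch1 they were Foxp2, a transcription factor of lung epithelium, with 176, 168, 191 and 183 CPM, Lysmd3 and Zfp882, and for Shh they were BC017158, Irs2 and Srcap. With only 4 lungs many genes are this alike, and an r above 0.99 was shared with 163 genes by Gli1, 217 by Ptch1 and 47 by Shh.

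Promoter sequences (250 bases before to 50 bases after the start of transcription, RefSeq, GRCm38.p6) were matched for 7 of the 9 genes, Gli2, Gli3, Hhip, Ihh, Ptch1, Smo and Sufu, and were searched on both strands for letters that Gli proteins bind. The full consensus GACCACCCA (TGGGTGGTC on the other strand) was in 83 of 32851 mouse promoters of this length (0.253%) and in none of the 7. Its core ACCACCC, which lies inside the full consensus and was read on both strands, was in 1514 promoters (4.61%) and in 1 of the 7, that of Gli2, 205 bases before the start. The Gli2 promoter (chr1:119053570-119053869, minus strand) is printed with the core, here read from the opposite strand, in capitals, and the Ptch1 and Hhip promoters (chr13:63565686-63565985 and chr8:80057959-80058258, both minus strand) beside it because these are the classical target genes among the 7, one higher in both Myh10-/- lungs and the other not.
Gli2: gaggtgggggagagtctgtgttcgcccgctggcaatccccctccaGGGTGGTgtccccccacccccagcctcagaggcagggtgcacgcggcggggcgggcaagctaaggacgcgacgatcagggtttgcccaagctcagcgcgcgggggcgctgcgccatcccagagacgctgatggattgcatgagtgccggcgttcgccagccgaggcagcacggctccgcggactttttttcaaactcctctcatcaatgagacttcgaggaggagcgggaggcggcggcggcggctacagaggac
Ptch1: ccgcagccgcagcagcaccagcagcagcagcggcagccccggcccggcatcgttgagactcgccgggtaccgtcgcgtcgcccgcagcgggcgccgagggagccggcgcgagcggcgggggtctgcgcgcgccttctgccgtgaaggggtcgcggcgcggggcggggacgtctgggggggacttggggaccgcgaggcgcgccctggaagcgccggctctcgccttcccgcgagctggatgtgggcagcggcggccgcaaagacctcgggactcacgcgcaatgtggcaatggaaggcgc
Hhip: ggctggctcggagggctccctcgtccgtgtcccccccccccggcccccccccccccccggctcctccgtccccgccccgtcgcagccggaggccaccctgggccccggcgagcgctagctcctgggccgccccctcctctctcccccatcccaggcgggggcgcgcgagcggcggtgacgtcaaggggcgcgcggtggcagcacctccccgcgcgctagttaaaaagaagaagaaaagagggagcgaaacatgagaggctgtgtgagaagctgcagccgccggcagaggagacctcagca
A match is a match of letters in a window of 300 bases and no measurement of binding, and the windows leave out distant enhancers. The Ptch1 window lies inside the gene's annotated span, which reaches chr13:63573598, so any start further upstream was not searched.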

How the data were processed

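Left lung lobes of E17 mice, 2 Myh10+/+ and 2 Myh10-/-, were sequenced as 75 bp single-end reads of stranded mRNA libraries. The deposited values are raw counts per gene, not normalized. To make them, the authors used Reaper for trimming and STAR 2.4.0a for alignment to GRCm38, and counted reads at least partly in exons with featureCounts 1.5.1, without reads on several genes or places (versions as in the submitters' processing notes). Whether strand was used is not given in the sources used here. Depth was 19116971 to 32055306 counts. In R 4.3.3, edgeR 4.0.16 (TMM, glmQLFit with robust = FALSE, glmQLFTest) was fitted to 18763 genes (mean of 5 counts or more) with Benjamini-Hochberg adjustment, and tested on simulated data. The p-values rest on separate mice, 2 per genotype. Named genes were the 9 members, preset pathway genes, any list gene past an adjusted p of 0.05 (up to 5 a list) and the 3 most correlated genes, besides those said to be chosen after their values were seen. Mgrn1, the cartilage markers and the mesenchymal markers other than Tbx4 and Pdgfra were also named after their values were seen. One preset pathway gene is not reported here. Members and lists were chosen with earlier results of these data known. Alternatives were other scalings, filters (no filter, filterByExpr, a mean of at least 50), DESeq2 1.42.0, robust = TRUE, no X, Y or MT genes, a replicate block, an offset for GC content and exon length (loess, span 0.3), both together, a crossed block added after seeing the data, and leaving out each lung. Sequences came from GENCODE M21 (GRCm38) and RefSeq. Gene positions, exon lengths and exon overlaps came from GENCODE M21, which may differ from the annotation used for counting.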

Additional observations from a re-analysis of the deposited data

How the results depend on the processing

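With 2 lungs per genotype, only 13 four-lung and 4 three-lung fits could be compared, and the counts of passing genes moved far more than the fold changes. The number of genes passing was 1162 with no filter, 474 with robust = TRUE, 710 with the replicate block and 525 with the block and the GC and length offset, against 308, and ran from 191 to 1826 with one lung left out. Of the 9 Hedgehog genes, 1 passed (Gli1) with library totals (log2 fold change 0.25), no filter (0.23), robust = TRUE (0.23), the replicate block (0.23), the offset (0.26) and the block with the offset (0.26), and 0 to 3 with one lung left out, when Gli1 ran from 0.20 to 0.25, Gli2 from 0.19 to 0.31 and Gli3 from 0.10 to 0.31. Among targets, 1 passed with the block (Foxf1, lower), 1 with block and offset (Snai1, higher, while Foxf1 was at −0.10) and 0 to 1 with a lung left out (Foxf1). Of the cilium genes 1 passed with block and offset (Wdpcp, lower) and 0 to 1 with a lung left out (Cep290, higher). The offset moved Shh to 0.09 and Hhip to −0.10. With the block, alone and with the offset, no other call of the 9 genes changed. The lungs share only a number, and the correlation of same-numbered lungs' deviations, −0.297 over all tested genes, was 0.0114 without X and Y genes. A crossed block, which joined lungs of the same sex by Xist and Ddx3y, passed 415 genes and none of the 9. Under it edgeR's adjusted p was 0.097 for Gli1. The unadjusted p of edgeR's test was 0.00361 for Gli1, 0.00907 for Gli2, 0.0169 for Gli3 and 0.0655 for Ptch1. Without a block these were 0.00182, 0.00837, 0.0287 and 0.0241. The replicate block joins lungs of unlike sex. The share of passing genes that were lower was 81.8%, but 67.6% with library totals, which moved the median of all genes from 0.002 to 0.022, 65.6% with the block, 69.1% with block and offset, 71.5% with robust = TRUE, 59.2% with no filter and 52.8% without Myh10-/- lung 2. Signs turned with the offset, alone and with the block, for Fgf10 (−0.0175 in both) and Ift88 (−0.0313 and −0.031). With one lung left out, log2 fold changes ran across 0 for Hhip (−0.11 to 0.07), Shh (−0.06 to 0.10), Boc (−0.0211 to 0.07), Gas1 (−0.0337 to 0.27), Kif7 (−0.13 to 0.14), Foxl1 (−0.08 to 0.18), Ccnd1 (−0.0485 to 0.10), Cdon (−0.06 to 0.07), Bmp4 (−0.0314 to 0.09), Mycn (−0.0395 to 0.10) and Ift88 (−0.0269 to 0.09). The cause of these changes was not tested. Ihh has no value under filterByExpr or a mean of at least 50 counts, which remove it, and no adjusted p under DESeq2's Wald test.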
